A study of Homo sapiens with 8 samples.

Results

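The G1 cyclins and their kinases are the genes CCND1, CCND2, CCND3, CCNE1, CCNE2, CDK4, CDK6, CDK2 and CDC25A, found by GENCODE symbol among the gene identifiers of the count files. All 9 were found, of 58735 genes in all. Their transcripts were counted by RNA sequencing in 22Rv1, an established castration-resistant human prostate carcinoma line. The 4 control libraries came from cells given the vehicle DMSO, and the 4 inhibitor libraries from cells given PCC0208017, which the submitters describe as acting on the kinase MARK3. Both groups are the same line, with no other agent or allele named, and neither dose nor duration is stated in the labels. Nothing in the labels says that the replicates were separate cultures, so p-values measure the spread between these libraries, which may be technical. Only transcripts were counted, with no measure of protein or kinase activity, those of MARK3 included. Effects of blocking MARK3 and other effects of the compound therefore cannot be told apart.

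Cells pass from G1 into S phase when cyclin-dependent kinases inactivate the retinoblastoma protein and so free E2F transcription factors. D-type cyclins, made in response to mitogens, activate CDK4 and CDK6. The E-type cyclins, which are themselves E2F targets, then activate CDK2, and the phosphatase CDC25A removes the inhibitory phosphates that hold CDK2 in check. In prostate cancer cells the androgen and MYC programmes both feed into this switch.

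In inhibitor-treated cells the transcripts of the E-type cyclins, of CDK2, of CDK4 and of CDC25A fell, the CDK6 transcript rose, and the 2 detected D-type cyclins, CCND1 and CCND3, did not pass the test. CDC25A fell by 56.2%, CDK4 fell by 45.3%, CCNE1 fell by 42.1%, CDK2 fell by 34.1% and CCNE2 fell by 25.9%, and CDK6 rose by 42.7%. Of the 9 genes, 8 passed the filter on low counts and CCND2 did not. Of those 8, 5 were called lower, 1 was called higher and 2 were not called. Over all 16452 genes tested, 58.0% were called, 28.3% lower and 29.8% higher, so a call alone does not set these genes apart from the rest. The libraries of the 2 groups did not overlap for 5 of the 8 genes (4 lower, 1 higher), against 51.0% of all tested genes. The median log2 change was -0.52 over the 8 tested genes and 0.02 over all tested genes. Levels are in CPM, the count relative to a library total scaled with edgeR's TMM factors. Each change is a log2 difference of inhibitor and control ± SE, with 4 libraries per group. Adjusted p-values come from the edgeR quasi-likelihood test, Benjamini-Hochberg adjusted over all tested genes, and a gene was called below 0.05.

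**Figure D1:**
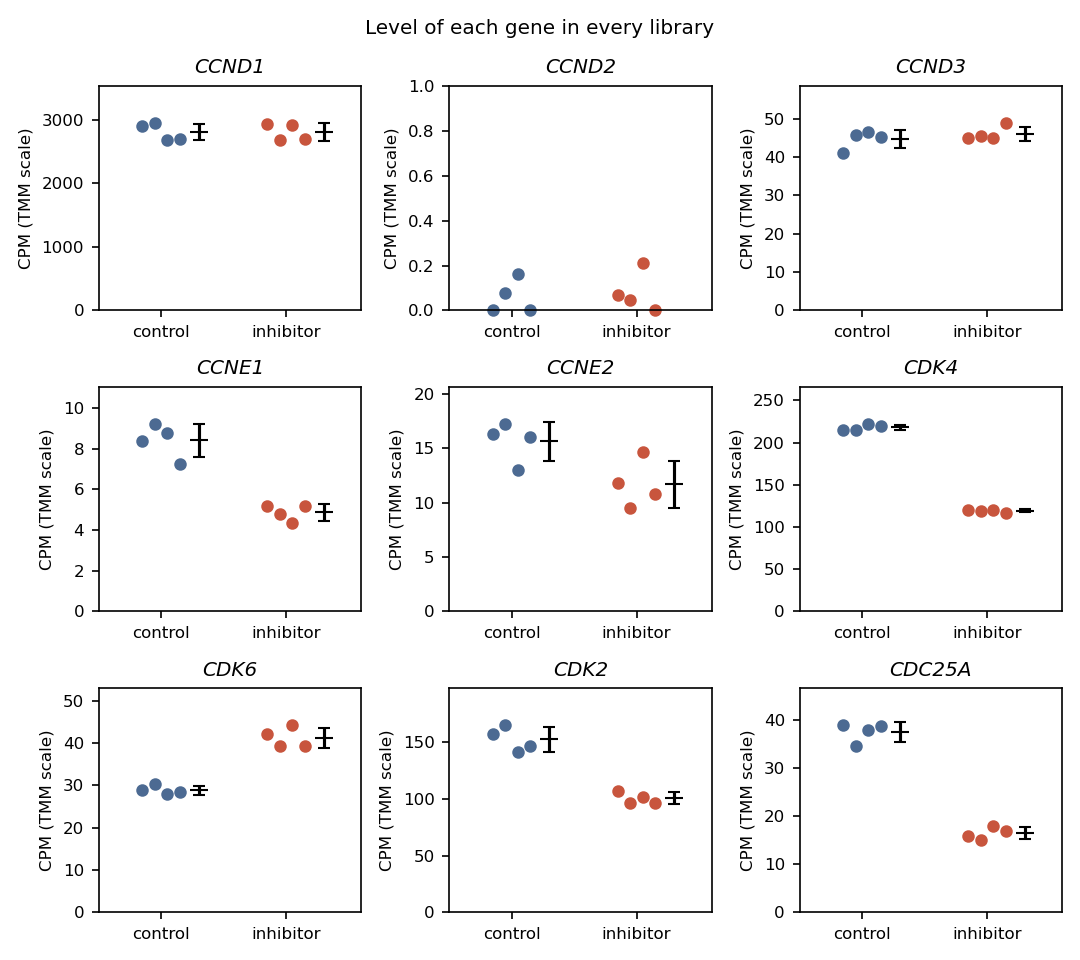
CPM of each of the 9 genes in the 4 control (blue) and 4 inhibitor (red) libraries, in order of replicate number from left to right, with the mean and SD beside them except for CCND2. The libraries of the 2 groups do not overlap for CCNE1, CDK4, CDK6, CDK2 and CDC25A, whereas those of CCND1, CCND3 and CCNE2 do.

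The libraries held 12672817 to 13386143 counts in controls and 13517289 to 21271127 in inhibitor-treated cells. The epithelial and prostate markers chosen to check the line were all expressed, with 10 of 10 averaging at least 1 CPM over the 8 libraries. Their summed level was 2222 to 2266 CPM in controls and 1614 to 1678 CPM in inhibitor libraries (unscaled total counts). The sum of 8 immune markers was 1.87 to 2.13 and 1.76 to 3.01 CPM, with CD3E at 0 in every library, and that of 5 endothelial markers was at most 0.381 CPM, with PECAM1 and CDH5 at 0. The sum of 8 fibroblast markers was 12.3 to 17.4 and 15.2 to 22.9 CPM, most of it COL1A1 (10.9 and 18.7 CPM on average), with PDGFRA at 0.

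CCND1 encodes cyclin D1, the D-type cyclin most often amplified in human tumours. CCND1 (ENSG00000110092; hg38 chromosome 11, 69641156 to 69654474, plus strand) stood at 2896, 2942, 2687 and 2701 CPM in control replicates 1 to 4. In inhibitor replicates 1 to 4 CCND1 was at 2927, 2680, 2920 and 2689 CPM. Each group held 2 higher and 2 lower libraries, and the groups overlapped almost fully. The log2 change of CCND1 was -0.001 ± 0.06 (adjusted p = 0.987), with a 95% interval of -0.12 to 0.12, or -7.84% to 8.31%. With 32767 to 59619 CCND1 counts per library, the spread between libraries and not the depth sets the width of that interval. CCND1 took 0.259 to 0.283% of all counts in controls and 0.276 to 0.308% in inhibitor libraries. Scaled by total counts, its change was 0.10 (adjusted p = 0.0683). The opposite-strand neighbour LTO1, whose span overlaps CCND1, had at most 631 counts in a library.

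CCND3, which encodes cyclin D3, was the only other D-type cyclin detected. CCND3 (ENSG00000112576; chromosome 6, 41934934 to 42050357, minus strand) was at 41.2, 45.8, 46.6 and 45.2 CPM in controls and at 45.0, 45.6, 44.9 and 48.8 CPM in inhibitor libraries. Of the 4 controls, 3 lay inside the inhibitor range and replicate 1 lay below it. CCND3 differed by 0.04 ± 0.07 on the log2 scale (adjusted p = 0.604; 95% interval -0.10 to 0.19). CCND2, which encodes cyclin D2 (ENSG00000118971; chromosome 12, 4269771 to 4305353, plus strand), had 0, 1, 2 and 0 counts in the controls and 1, 1, 3 and 0 counts in the inhibitor libraries. A count of 3, taken as the floor, corresponds to 0.141 to 0.237 CPM in these libraries. CCND2 was thus at or under the floor in both groups, and no fold change is given.

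Cyclin D1 made up almost the whole D-type pool at the transcript level in both groups. Per kilobase of annotated exon, CCND1 held 98.7% ± 0.11 of the summed D-type cyclin level in controls and 98.7% ± 0.11 in inhibitor libraries (SD, n = 4). The difference of -0.042 percentage points had a two-sided exact permutation p of 0.629 (adjusted p = 0.629 over the 3 shares compared here).

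CCNE1 and CCNE2 encode cyclins E1 and E2, the partners of CDK2 at the G1/S boundary, and both fell. CCNE1 (ENSG00000105173; chromosome 19, 29811991 to 29824312, plus strand) was at 8.38, 9.19, 8.77 and 7.26 CPM in controls and at 5.16, 4.76, 4.34 and 5.19 CPM in inhibitor libraries. Every inhibitor library lay below every control, as for 25.1% of all tested genes. For CCNE1 the log2 change was -0.79 ± 0.13 (adjusted p = 1.92e-05), and the counts behind it were 93 to 116 in controls and 62 to 106 in inhibitor libraries. In bulk RNA, fewer cells in a phase that makes a transcript and less of that transcript per cell cannot be told apart.

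CCNE2 (ENSG00000175305; chromosome 8, 94879770 to 94896678, minus strand) was at 16.3, 17.2, 13.0 and 16.0 CPM in controls and at 11.8, 9.53, 14.6 and 10.8 CPM in inhibitor libraries. Control replicate 3 was the lowest control and lay below inhibitor replicate 3, the highest treated library, so the groups overlapped. For CCNE2 the log2 change was -0.43 ± 0.12 (adjusted p = 0.00387), and it ranged from -0.57 to -0.33 with each library left out in turn. The span of CCNE2 overlaps INTS8 (0.30 ± 0.07, adjusted p = 0.000638) and NDUFAF6 (-1.02 ± 0.09, adjusted p = 2.37e-10) on the opposite strand, both with more counts than CCNE2 in every library. The strand setting of the counting is not stated, and the part of these neighbours in the CCNE2 value was not tested.

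The balance between the 2 E-type cyclins did not differ beyond the spread. Per kilobase, CCNE1 held 47.9, 48.9, 54.6 and 44.8% of the E-type level in controls and 43.9, 47.2, 34.6 and 46.2% in inhibitor libraries. The mean share was 49.0% ± 4.10 against 43.0% ± 5.73 (SD, n = 4), with inhibitor replicate 3 the lowest. The difference of -6.05 percentage points gave an exact two-sided permutation p of 0.114 (adjusted p = 0.171 over 3 shares). Without inhibitor replicate 3 the difference was -3.27 percentage points.

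Promoter sequences were available for 5 of the 9 genes in the RefSeq table (GRCh38.p14), with none for CCND1, CCND2, CCNE2 and CDK2. The 250 bases before the annotated start follow for the 3 genes that fell and have an entry, and for CDK6, which rose, so that their composition can be compared. Each was searched on both strands for an E2F motif (TTTCCCGC, TTTCGCGC, TTTGCCGC or TTTGGCGC), the E-box CACGTG bound by MYC and related factors, and the GC box GGGCGG of Sp1-type factors. Capitals mark the E2F motif in CDC25A, the E-box in CDK4 and the GC box in CCNE1 and CDK6, and each line runs 5′ to 3′ on the gene's strand.
CDC25A, chr3:48188418-48188667, minus strand: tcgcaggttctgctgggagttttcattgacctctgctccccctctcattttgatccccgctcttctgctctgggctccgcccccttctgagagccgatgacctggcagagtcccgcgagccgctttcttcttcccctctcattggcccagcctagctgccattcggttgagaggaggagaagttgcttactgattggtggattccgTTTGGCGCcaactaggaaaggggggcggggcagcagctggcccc
CDK4, chr12:57752311-57752560, minus strand: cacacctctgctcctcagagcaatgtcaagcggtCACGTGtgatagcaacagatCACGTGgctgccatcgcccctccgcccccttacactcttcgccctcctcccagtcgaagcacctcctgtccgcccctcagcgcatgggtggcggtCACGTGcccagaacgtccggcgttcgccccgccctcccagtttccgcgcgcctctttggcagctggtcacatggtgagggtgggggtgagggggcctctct
CCNE1, chr19:29811741-29811990, plus strand: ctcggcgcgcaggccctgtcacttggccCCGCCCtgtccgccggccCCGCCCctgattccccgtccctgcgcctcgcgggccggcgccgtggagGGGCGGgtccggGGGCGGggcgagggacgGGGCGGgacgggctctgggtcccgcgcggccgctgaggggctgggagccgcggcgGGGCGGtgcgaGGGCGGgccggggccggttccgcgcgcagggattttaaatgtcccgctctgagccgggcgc
CDK6, chr7:92836574-92836823, minus strand: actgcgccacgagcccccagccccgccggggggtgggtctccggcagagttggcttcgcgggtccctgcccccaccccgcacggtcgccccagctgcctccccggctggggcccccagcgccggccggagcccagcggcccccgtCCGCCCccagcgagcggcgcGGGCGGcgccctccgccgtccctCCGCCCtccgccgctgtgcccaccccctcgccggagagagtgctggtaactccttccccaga
CDC25A held 1 E2F motif, beginning 44 bases before the start, and 2.79% of 35114 RefSeq windows of this length held at least 1. CDK4 held 3 E-boxes, beginning 216, 196 and 101 bases before the start. The RefSeq start of CDK4 lies inside the longer span that GENCODE annotates. At least 1 E-box was found in 6.35% of windows and at least 3 in 0.0797%. CCNE1 held 7 GC boxes, a number reached by 1.12% of windows, CDK4 and CDK6 held 3 each and CDC25A held 2, with at least 1 in 42.6% of windows. The CCAAT box (CCAAT) was found 2 times in CDC25A and in none of the other windows printed, and 32.0% of all windows held it. The CRE (TGACGTCA), AP-1 (TGACTCA) and CHR (TTTGAA or TTCGAA) letters were in none of the 4 printed windows, and 1.65%, 4.2% and 14.3% of all windows held them. The CCNE1 and CDK6 windows held none of the E2F or E-box letters searched. Neither did the other CDK6 window or the 3 windows of CCND3, which are not shown. That other CDK6 window held 0 GC boxes. A match describes letters in a window and is not a bound site.

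CDK4 and CDK6 encode the kinases that D-type cyclins activate, and they moved in opposite directions. CDK4 (ENSG00000135446; chromosome 12, 57747727 to 57756013, minus strand) was at 215.2, 214.9, 221.5 and 219.9 CPM in controls. In inhibitor libraries CDK4 was at 120.7, 119.4, 119.9 and 116.5 CPM. All 4 inhibitor libraries lay far below all 4 controls, and the SDs were only 3.33 and 1.85 CPM. The CDK4 change was -0.87 ± 0.05 on the log2 scale (adjusted p = 5.3e-13), and 7.83% of all tested genes had a lower change. Its span overlaps TSPAN31 (0.40 ± 0.08, adjusted p = 0.000117) and MARCHF9 (-0.18 ± 0.07, adjusted p = 0.0317) on the opposite strand, each with fewer counts than CDK4.

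CDK6 (ENSG00000105810; chromosome 7, 92604921 to 92836573, minus strand) was at 28.9, 30.3, 27.9 and 28.3 CPM in controls and at 42.2, 39.4, 44.1 and 39.2 CPM in inhibitor libraries. Every inhibitor library lay above every control, as for 25.8% of all tested genes. The CDK6 change was 0.51 ± 0.07 on the log2 scale (adjusted p = 1.92e-06), and 15.4% of tested genes had a higher change. Of the 8 tested genes CDK6 was the only one called higher.

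The test of the difference between these kinases is the share of CDK4 in their sum. Per kilobase of exon, CDK4 held 96.7, 96.6, 96.9 and 96.9% of the summed CDK4 and CDK6 level in controls. In inhibitor libraries the CDK4 share was 91.9, 92.3, 91.5 and 92.2%. The mean share was 96.8% ± 0.16 in controls and 91.96% ± 0.36 in inhibitor libraries, with no overlap, a difference of -4.80 percentage points (SD, n = 4; exact two-sided permutation p = 0.0286, the smallest that 4 against 4 allows, and adjusted p = 0.0858 over 3 shares, which misses 0.05). Given the p-values of the other shares, the adjusted p could not have been lower, so this test could not reach 0.05. From counts not divided by exon length the difference was -13.99 percentage points (exact permutation p = 0.0286), so its size depends on the length used. Per kilobase, CDK4 was by far the more abundant transcript of the pair in every library. The CCND1 level per kilobase was 8.46, 8.59, 7.64 and 7.73 times the summed CDK4 and CDK6 level in controls and 14.5, 13.5, 14.5 and 13.8 times in inhibitor libraries, a description without a test.

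**Figure D2:**
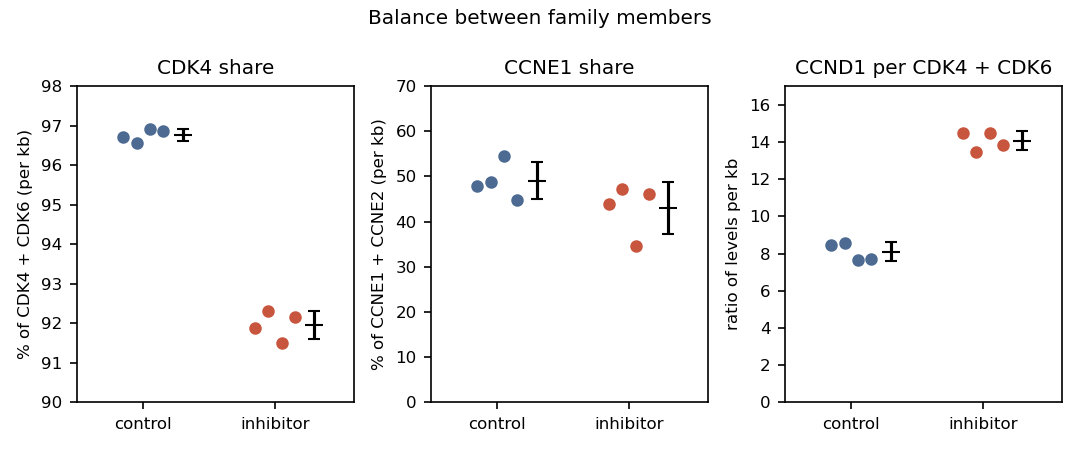
Share of CDK4 in the summed CDK4 and CDK6 level (left; the axis runs from 90 to 98%), share of CCNE1 in the summed E-type cyclin level (middle) and ratio of CCND1 to CDK4 plus CDK6 (right), all per kilobase of exon, with 1 point per library and the mean and SD beside them. The mean CDK4 share is 96.8% in controls and 91.96% in inhibitor libraries without overlap, the CCNE1 shares overlap, and the mean ratio is 8.11 and 14.1.

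CDK2, the kinase of the E-type cyclins, fell as well. CDK2 (ENSG00000123374; chromosome 12, 55966781 to 55972789, plus strand) was at 157.8, 165.0, 141.2 and 146.4 CPM in controls and at 107.5, 96.7, 101.9 and 96.7 CPM in inhibitor libraries. The lowest control exceeded the highest inhibitor library, and control replicates 1 and 2 stood above replicates 3 and 4, as they did for CCND1. The CDK2 change was -0.60 ± 0.06 on the log2 scale (adjusted p = 1.02e-08). Its opposite-strand neighbour PMEL had at most 72 counts in a library.

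CDC25A, the phosphatase that activates the cyclin E and CDK2 complex and a known E2F target, had the lowest change of the 8 tested genes. CDC25A (ENSG00000164045; chromosome 3, 48157146 to 48188417, minus strand) was at 38.8, 34.5, 37.8 and 38.7 CPM in controls and at 15.8, 15.1, 17.9 and 17.01 CPM in inhibitor libraries. The groups were well apart, with the highest inhibitor library under the lowest control. The CDC25A change was -1.19 ± 0.08 on the log2 scale (adjusted p = 6.37e-12), or 2.28-fold lower, and 4.26% of all tested genes had a lower change. Among the 5 genes with a promoter window, which leave out CDK2 and CCNE2, only CDC25A held an E2F motif. CCNE1, which also fell, held none, and a part of E2F factors in these changes was not tested.

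**Figure D3:**
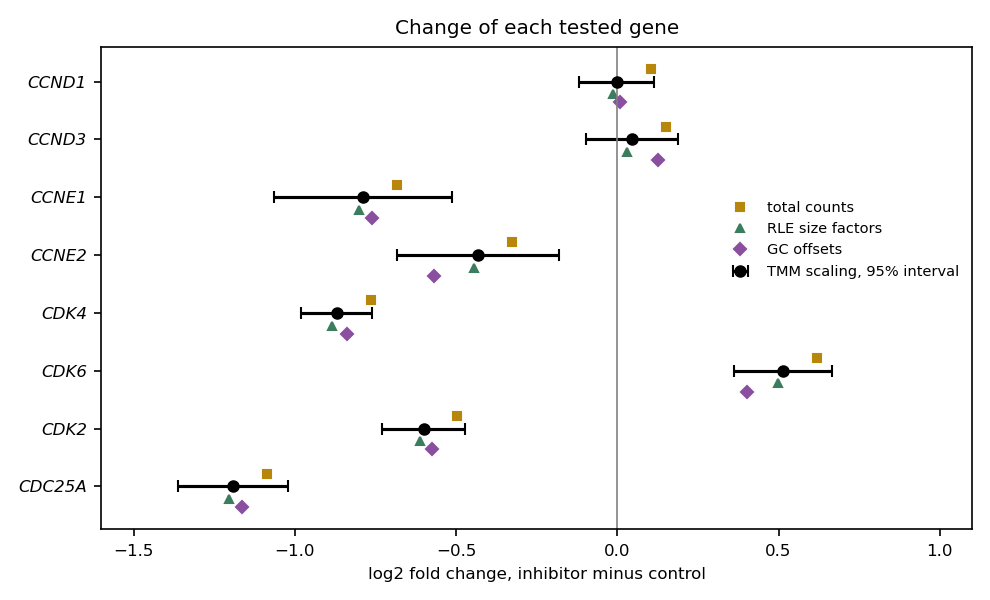
Log2 fold change, inhibitor minus control, of the 8 tested genes with TMM scaling (black, with the 95% interval) and with total counts, RLE size factors or offsets for transcript GC content (coloured). The 5 genes called lower and CDK6 keep their side of 0 under each, whereas CCND1 lies at -0.001 with TMM, -0.01 with RLE and 0.10 with total counts.

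The order of levels per kilobase of exon changed below the 3 most abundant genes. In controls it ran from CCND1 (589.5 CPM per kilobase) over CDK4 (70.4), CDK2 (39.3), CDC25A (9.04), CCND3 (7.76), CCNE2 (3.55) and CCNE1 (3.41) to CDK6 (2.36), with CCND2 last at 0.00761. Only CCNE2 and CCNE1 overlapped as neighbours in that order. In inhibitor libraries CCND1 (588.9 CPM per kilobase), CDK4 (38.5) and CDK2 (25.9) were followed by CCND3 (8.00), CDC25A (3.97), CDK6 (3.37), CCNE2 (2.66) and CCNE1 (1.98), and the overlapping neighbours were CDK6 and CCNE2. CDK6 thus went from the lowest of the 8 tested genes to above both E-type cyclins on this scale. That move depends on the exon length used. In CPM not divided by length, CDK6 already averaged 28.9 in controls, above CCNE2 (15.6) and CCNE1 (8.40). CCND1 ranked 47th of 16360 genes by mean level per kilobase in controls and 44th in inhibitor libraries.

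**Figure D4:**
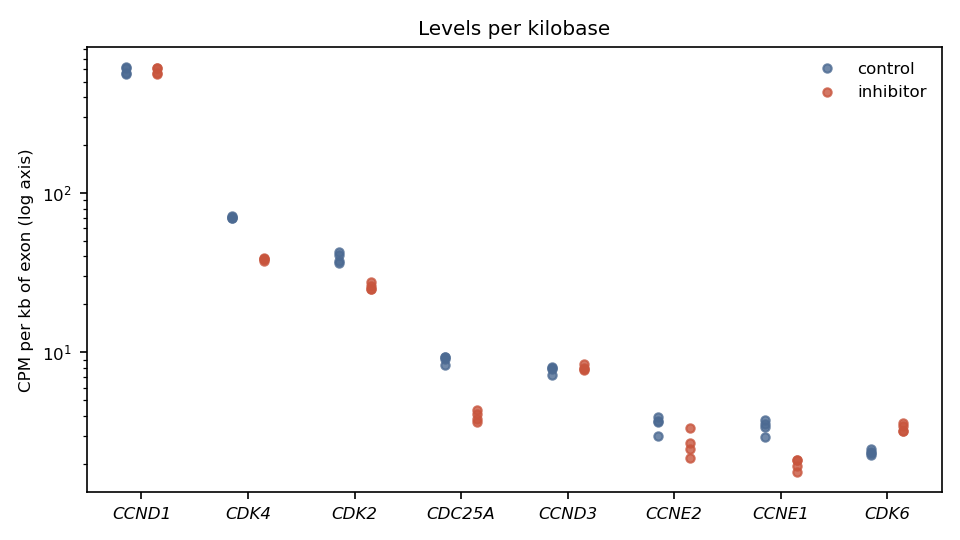
Level of the 8 tested genes in CPM per kilobase of exon on a log axis, 1 point per library, controls in blue and inhibitor libraries in red, ordered by the control mean. CCND1 lies near 589 in both groups, CDC25A drops from 9.04 to 3.97 and CDK6 rises from 2.36 to 3.37.

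Lists of genes around this switch were counted in the same fit, against the shares of all tested genes given above. Among 13 retinoblastoma and E2F family genes, 8 were lower, 1 was higher and 4 were not called (median log2 change -0.55). TFDP1, the dimer partner of E2F factors, fell (-0.73 ± 0.06, adjusted p = 9.66e-11), as did E2F3 (-1.18 ± 0.11, adjusted p = 1.38e-09) and RBL1, which encodes the pocket protein p107 (-0.63 ± 0.09). RBL2, which encodes the pocket protein p130 of resting cells, was the gene that rose (0.26 ± 0.07, adjusted p = 0.00306). RB1 itself was at -0.14 ± 0.09 (adjusted p = 0.192).

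Of 8 genes listed as CDK inhibitors, 5 were higher, 1 was lower and 2 were not called (median 0.51). CDKN2B, CDKN2C and CDKN2D encode INK4 proteins, which bind CDK4 and CDK6. CDKN2B rose from 3.604 to 11.3 CPM (1.64 ± 0.14, adjusted p = 1.67e-10), CDKN2C by 0.72 ± 0.06 and CDKN2D by 0.65 ± 0.08. CDKN2A, which also encodes an INK4 protein, was at 107.5 and 98.6 CPM and was not called (-0.13 ± 0.06, adjusted p = 0.082). Outside the INK4 genes, CDKN1B rose from 226.4 to 394.4 CPM (0.80 ± 0.05, adjusted p = 3.13e-12). CDKN1A, which encodes the inhibitor p21, was the gene that fell (-0.70 ± 0.06, adjusted p = 3.98e-10). Among genes that activate or restrain these kinases, 4 of 12 were higher, 7 lower and 1 was not called (median -0.26). PKMYT1, which encodes an inhibitory kinase of CDK1, fell (-1.15 ± 0.06, adjusted p = 6.02e-14), and so did the checkpoint kinase gene CHEK1 (-0.62 ± 0.07). The CDK-activating complex split, with the cyclin gene CCNH lower (-0.67 ± 0.08) and CDK7 (0.29 ± 0.08) and MNAT1 (0.35 ± 0.09) higher.

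Genes that turn cyclins over had no common direction, with 5 of 17 higher, 3 lower and 9 not called (median 0.03). BTRC (0.53 ± 0.09) and GSK3B (0.33 ± 0.07), the kinase gene whose product marks cyclin D1 for export and decay, rose. SKP2 (-0.28 ± 0.07) and FBXO31 (-0.35 ± 0.07), genes of F-box proteins, fell. Of 8 genes of the DREAM and MuvB complexes and their MYB partners, 2 were higher, 3 lower and 3 not called (median 0.03), with MYBL2 (-0.89 ± 0.06) and RBBP4 (-0.75 ± 0.05) lower.

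The other cyclins and kinases of these families gave mixed results, and CCNH and CDK7 count here as well. Of 21 other cyclin genes tested, 10 were higher, 3 lower and 8 not called (median 0.16), among them CCNI (0.46 ± 0.06) and CCNO (0.85 ± 0.11). Of 17 other cyclin-dependent kinase genes tested, 6 were higher, 4 lower and 7 not called (median 0.04). CDK18 fell from 19.7 to 6.57 CPM (-1.57 ± 0.12, adjusted p = 2.09e-11) and CDK10 by 0.80 on the log2 scale (± 0.08), and CDK13 rose (0.35 ± 0.06). CDK1, the mitotic kinase gene, was at -0.02 ± 0.06 (adjusted p = 0.818).

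Markers of the neighbouring phases moved with the groups. All 28 replication and S phase genes tested were lower (median -0.87), for example MCM7 (-1.14 ± 0.05) and UHRF1 (-1.41 ± 0.07). Of 26 genes of G2 and mitosis, 19 were higher, 4 lower and 3 not called (median 0.34), with AURKA at 0.55 ± 0.06 and MAD2L1 at -0.26 ± 0.06. The part of a shift between phases in the values of the G1 cyclins and kinases was not tested. Of 23 tested transcription factor genes with known action on D-type cyclin genes, 14 were higher, 2 lower and 7 not called (median 0.39). STAT3 (0.79 ± 0.07) and FOXO3 (0.63 ± 0.07) rose, and RELA fell (-0.24 ± 0.07), a call that ended with total counts. MYC, at -3.53 ± 0.07, was the other gene of that list that fell.

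**Figure D5:**
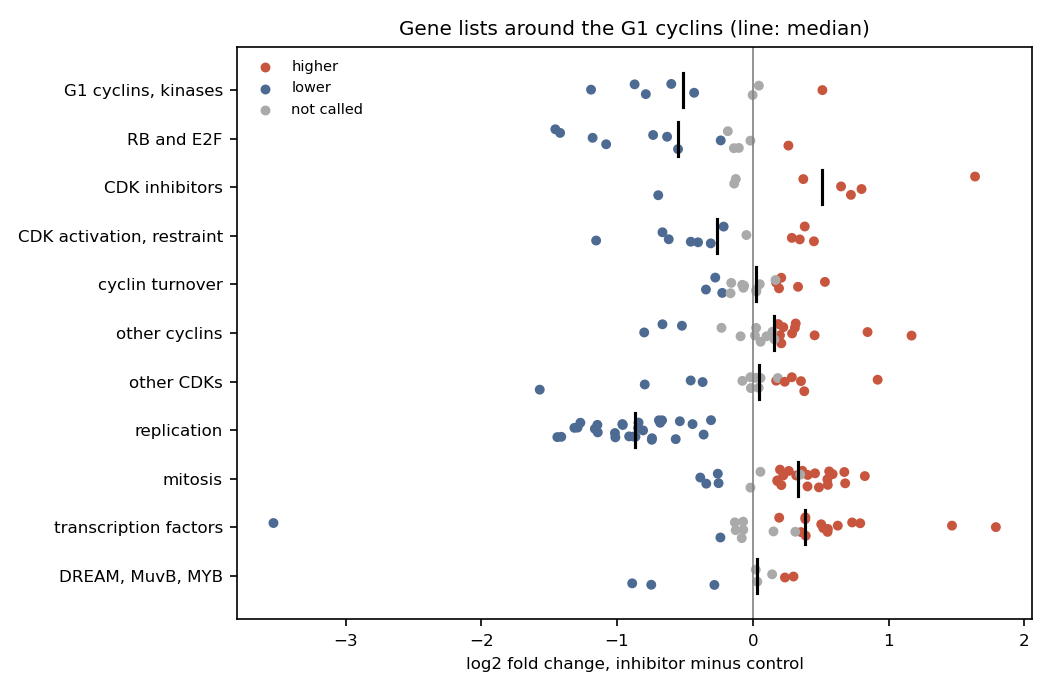
Log2 fold change of each tested gene of the 10 lists and of the 8 tested G1 cyclins and kinases (top row), coloured by whether it was called higher, lower or not, with a black line at each list's median. The replication genes all lie below 0 (median -0.87), the mitosis genes mostly above it (median 0.34), and the CDK inhibitors have a median of 0.51.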

How the data were processed

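Each file holds raw read counts for 1 sample, listed by Ensembl gene and deposited by the authors without normalization. Per the series' design text, the authors aligned reads to hg38, counted them with featureCounts and tested the matrix with DESeq2, with no version named. The aligner, the annotation and the strand setting were not stated. Symbols, spans, exon lengths and GC content came from GENCODE 44 on hg38, in which 58207 of 58735 identifiers were found. Groups and replicate numbers came from the titles. Pairs of libraries within a group differed by 1.71 to 9.80 in chi-square per degree of freedom, more than sampling noise. Control replicates 1 and 2 differed by 1.73 and replicates 3 and 4 by 1.71, against 3.415 to 4.596 for the other control pairs. The 4 controls may thus not be equally independent, and the labels do not say why.

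Counts were tested over all genes with edgeR 4.0.16 in R 4.3.3 (filterByExpr, TMM, glmQLFit with robust dispersion, glmQLFTest on the group), which left 16452 genes. The SE is the absolute log2 change divided by the square root of F. The procedure was tested on simulated counts in which 200 genes changed. Many more genes were called in these data, so the simulation does not test the scaling. Shares are per kilobase of the union of annotated exons, which counts rare exons as if always used.

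The members and the 10 lists were chosen with earlier results of these data known, and the lists were written from general knowledge. The genes eligible for naming were the members, up to 4 called genes per direction of each list by smallest p, the genes most like each member and those whose span overlaps it, of which the text gives some. RBL1, RB1, CDKN2A, CDK1, AURKA and FOXO3 were named after their values were seen. The 4 marker lists check the line. Alternatives tried were scaling by RLE, upper quartile or total counts, 2 other filters, DESeq2 1.42.0, limma-voom (limma 3.58.1), the replicate block, each library left out, thinning to 12672817 counts, GC offsets, shares from counts not divided by length and an adjusted p under 0.01. No file was left out.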

Additional observations from a re-analysis of the deposited data

How the results depend on the processing

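The calls of the 5 lower genes and of CDK6 kept their direction and stayed under 0.05 in all 18 alternatives each (108 of 108 values, largest adjusted p = 0.0314, for CCNE2 with total counts), and CCND1 and CCND3 were called in 0. CCND1 changed sign, uncalled, with total counts (0.10), upper-quartile factors (0.0299) and GC offsets (0.0089), and ranged from -0.0408 to 0.0222 with each library left out. Leaving libraries out, the CCND1 share differed by -0.0798 to 0.004877 percentage points, the CCNE1 share by -7.47 to -3.27 and the CDK4 share by -4.91 to -4.64, where the exact permutation test of 3 against 4 cannot go below p = 0.0571. The labels share replicate numbers, but same-numbered libraries correlated by only -0.088 to 0.131 and 1 of 4 controls was closest to its own number. With the replicate block, 4912 genes were higher and 4684 lower, and CDC25A and the other members kept their calls. Total counts moved the median of all genes from 0.02 to 0.13 and the calls from 4897 higher and 4652 lower (51.3% higher) to 6274 and 3596 (63.6%).

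Cyclin turnover had 3 higher with no filter, with GC offsets (with 5 lower and a median of -0.04) or at an adjusted p under 0.01, and 3 to 5 higher, 3 to 5 lower and a median of -0.016 to 0.031 with each library left out (3 higher without control replicate 4 or inhibitor replicate 1, and 5 lower without the latter). Other cyclin-dependent kinases had 3 higher with DESeq2 or under 0.01, 4 when thinned, and 4 to 6 with a median of 0.002 to 0.096 with each library left out. Transcription factors had 1 lower with total counts and 4 with GC offsets. The DREAM list had 1 higher with GC offsets (median -0.017), DESeq2 or under 0.01, and 1 to 2 higher and a median of -0.031 to 0.089 with each library left out (1 higher without replicate 2 or 3 of the controls or 1 or 3 of the inhibitor group). CDK inhibitors had 1 to 2 lower with each library left out (2 without replicate 1 of either group). Mitosis genes had 21 higher and 3 lower with total counts (median 0.44) and 17 higher and 5 lower with GC offsets (median 0.27). With each library left out they had 15 to 19 higher and a median of 0.26 to 0.37, both lowest without inhibitor replicate 1. The causes were not tested. Depth limits CCND2 and, through 62 to 116 counts per library, the precision of CCNE1. Of 61 genes eligible for naming from the lists, 53 kept their call under every alternative run and 0 changed sign.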

Other observations

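Apart from the group difference, some of the genes deviated together from library to library. Deviations of log2 CPM from the group means correlated at 0.93 for CCND1 and CDK2, 0.91 for CCND1 and CDK6, 0.89 for CCNE2 and CDK6 and 0.78 for CCND1 and CCNE2 (Pearson's r over 8 libraries, a description, the points sharing library depth and preparation). These were the highest values among all pairs of the tested genes, and the lowest was -0.551 for CCND1 and CCND3. For CDK4 the values with the other 7 tested genes lay between -0.384 (CCNE1) and 0.074 (CDK6).

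Among 10268 genes averaging 10 CPM or more, those whose log2 CPM followed each gene most closely over the 8 libraries were TTLL12 for CDK4 (r = 0.9996), FRRS1 for CDK6 (0.998), HNMT for CDK2 (0.9985), ZG16B for CDC25A (0.996), ZNG1A for CCNE1 (0.993), BICRAL for CCNE2 (0.971), LMBR1 for CCND1 (0.985) and RPL17 for CCND3 (0.967). The highest r of so many genes over 8 points is large by selection. TTLL12 went from 142.1 to 56.1 CPM and FRRS1 from 10.2 to 24.5 CPM, whereas LMBR1 was at 122.4 and 121.6 CPM.

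By Dixon's test at the 95% level, 0 of the 22 groups of 4 values checked, for the 8 tested genes and the 3 shares, held an outlying library, but with 4 values the test finds only wide gaps. CCND3 in inhibitor replicate 4, at 48.8 CPM against 44.9 to 45.6 CPM in the other libraries of the group, lay just under the limit.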
